A study of Mus musculus with 4 samples.

Results

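Collagens are secreted proteins in which 3 chains wind into a triple helix, and each chain is the product of its own gene. The collagen chain genes described here are those whose gene name on the array reads Col, a number, a and a number. There were 40 such genes, read by 78 of the array's 41174 gene probes, and each gene was represented by its probe of highest mean intensity. They were compared in a mouse mammary tumour line, 4TO7, of BALB/cfC3H origin, as 2 stable lines: cells carrying the retroviral vector pMSCV with the miR-23b/27b/24 cluster, and cells carrying pMSCV-puro without it. Each line had 2 arrays, which the series calls transfection replicates; no passage, clone or day is given, so the p-values measure the spread between these arrays, which may be technical. Both lines were kept at 37 °C in 5% CO2 in the same medium with 10% serum, and no other agent is named. On every array, the cells' RNA carried Cy5 and was set against Universal Mouse Reference RNA in Cy3, a pool of 11 mouse cell lines, so every level below is a log2 ratio of cells over that pool. The level of the microRNAs themselves was not analysed here.

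Collagens fall into classes by the structures they build. Fibrillar collagens form the banded fibrils of connective tissue, network collagens such as type IV form the sheet of the basement membrane under epithelia, and fibril-associated collagens (FACITs) sit on the surface of fibrils. In mammary tumours most fibrillar collagen is known to come from stromal fibroblasts, while epithelial tumour cells make basement membrane chains.

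The cluster gives rise to miR-23b, miR-27b and miR-24, and the mature strands of miR-27b and miR-24 below, from RefSeq on GRCm38.p6, show what the cluster adds to the cells. Both lie on the plus strand of chromosome 13, at chr13:63300760-63300780 and chr13:63301251-63301272, and capitals mark the seed, bases 2 to 8, which pairs with target transcripts. The 2 seeds differ.
mmu-miR-27b-3p: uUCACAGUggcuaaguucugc
mmu-miR-24-3p: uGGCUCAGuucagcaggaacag

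Of the 40 genes, 36 passed the filter, which asked that a group have its probe well above Cy5 background on both of its arrays. Col8a2, Col10a1, Col12a1 and Col19a1 did not pass, and no comparison was made for them. Among the 36, 7 collagen chain genes rose with the cluster and 1 fell, at an adjusted p under 0.05 in a limma fit of all 20498 genes. That is 8 of 36 (22.2%), where 9.42% of all genes were called (4.78% higher and 4.64% lower). The higher genes were Col9a1, Col14a1, Col16a1 and Col22a1, all FACITs, Col6a1 and Col6a3 of the type VI microfilament, and Col4a5 of the basement membrane. The lower gene was Col8a1, a short-chain network collagen. The median log2 fold change over the 36 was -0.04, beside -0.03 over all genes tested. Groups whose arrays did not overlap were found for 24 of the 36 (66.7%), near the 59.8% of all genes. Among the called genes, Col9a1 and Col14a1 passed the filter only through the group in which they were high. Each was well above background on both miR-23b/27b/24 arrays and on 1 of 2 vector arrays. Col24a1 and Col28a1 passed in the same way, and Col4a3, Col9a3, Col13a1 and Col15a1 only through the vector arrays, where they were higher. All of these except Col13a1 were counted as not overlapping. Of the 28 collagen genes with bright Cy5 and Cy3 spots on every array, 17 (60.7%) did not overlap, beside 59.9% of all genes so restricted. With the filter set to all 4 arrays, 28 collagen genes were tested and 6 were called, where 9.21% of all genes were. The count rested on both miR-23b/27b/24 arrays. Without replicate 1 of that group 1 collagen gene was called (Col9a1) and without replicate 2 there were 2 (Col9a1 and Col14a1), where 1.04% and 1.15% of all genes were called. Leaving out vector replicate 1 gave 12 and vector replicate 2 gave 8, where 22.4% and 13.3% of all genes were called. With every local background as measured, 2 genes were called (Col9a1 and Col8a1), where 3.1% of all genes were. In RNA of whole cultures, fewer cells that make a transcript and less transcript per cell cannot be told apart.

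**Figure D1:**
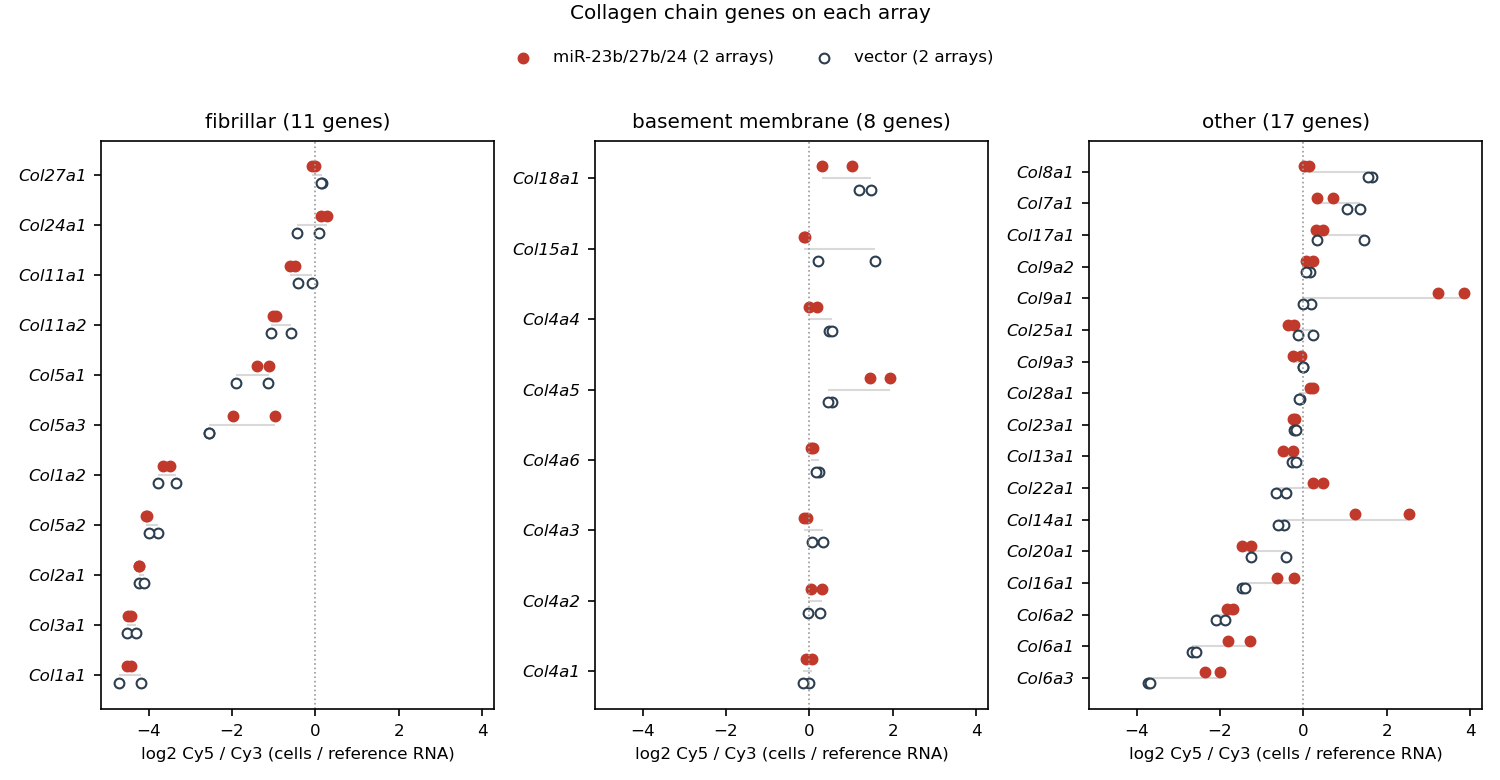
Log2 ratio of Cy5 (cells) over Cy3 (reference RNA) of the 36 collagen chain genes tested, in 3 panels by class; filled points are the 2 miR-23b/27b/24 arrays, open points the 2 vector arrays, and grey lines span all 4. Col1a1, Col3a1 and Col2a1 sit near -4 in both groups, while Col9a1 sits at 3.22 and 3.85 in the miR-23b/27b/24 cells, against 0.18 and 0.00 in the vector cells.

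Col9a1 encodes a chain of type IX collagen, a FACIT that coats type II fibrils in cartilage. Its log2 ratio was 3.22 and 3.85 on the miR-23b/27b/24 arrays, against 0.18 and 0.00 on the vector arrays. In the vector cells the spot was dim in both channels, with normalized Cy5 of 6.55 and 6.32 in log2 and well above background on 1 of 2 arrays, so a ratio near 0 there is no measure of a level equal to the pool. The log2 fold change was 3.45 ± 0.24 (SE from 2 arrays in each group; adjusted p = 0.00506 by limma), a value that rests on dim vector spots. The reference channel of this spot also differed between groups, although it held the same RNA on all arrays. Normalized Cy3 was 7.28 and 7.73 in log2 on the miR-23b/27b/24 arrays, against 6.46 and 6.36 on the vector arrays, a difference of 1.10. There were 21 genes (0.102%), Col9a1 among them, with a Cy3 difference of at least that size, and the next largest among the collagens was 0.17. In Cy5 alone the difference of Col9a1 was 4.34, so the ratio gave the smaller value, and the part of the Cy3 shift in the result was not tested. The array read Col9a1 with a single probe, at chr1:24461980-24462039 on the plus strand in the mm7 coordinates of the files. The other chains of type IX, Col9a2 and Col9a3, which join Col9a1 in a trimer in cartilage, had log2 fold changes of 0.04 and -0.14 (limma adjusted p = 0.893 and 0.546).

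RefSeq lists 2 start sites of Col9a1, and the 300 bases around each (250 before and 50 after, plus strand, GRCm38.p6) are shown because this gene had the largest log2 fold change of the 36. They lie at chr1:24177360-24177659 and chr1:24194953-24195252. Capitals mark the motif CCAAT, found once in the second window and not in the first.
Col9a1 upstream start: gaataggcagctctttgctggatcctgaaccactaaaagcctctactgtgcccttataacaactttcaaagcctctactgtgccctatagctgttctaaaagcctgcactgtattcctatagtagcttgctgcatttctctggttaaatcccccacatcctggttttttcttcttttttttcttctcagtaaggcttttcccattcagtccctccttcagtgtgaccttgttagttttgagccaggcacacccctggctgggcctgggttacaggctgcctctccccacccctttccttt
Col9a1 downstream start: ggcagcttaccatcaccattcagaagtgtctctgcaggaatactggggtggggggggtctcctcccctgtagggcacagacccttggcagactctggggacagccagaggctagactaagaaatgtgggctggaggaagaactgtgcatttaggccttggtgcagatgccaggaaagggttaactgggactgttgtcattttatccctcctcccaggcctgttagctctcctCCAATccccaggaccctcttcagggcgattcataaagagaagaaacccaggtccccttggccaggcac
Neither window held the TATA box TATAAA, the GC box GGGCGG, or the SOX factor core written as ACAAAG or as ACAATG. Over all 32851 promoter windows, searched on both strands, CCAAT was found in 37.4%, the GC box in 35.7%, the TATA box in 13.6%, and either form of the SOX core in 28.6%. Which start the Col9a1 transcripts used was not analysed here.

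Col14a1, Col16a1 and Col22a1 were the other FACITs that rose. Col14a1 encodes type XIV collagen, which binds type I fibrils and the proteoglycan decorin. Its log2 ratio was 2.53 and 1.24 on the miR-23b/27b/24 arrays, against -0.47 and -0.62 on the vector arrays. The groups did not overlap, but the miR-23b/27b/24 arrays lay 1.30 apart, and in the vector cells the probe was well above background on 1 of 2 arrays (normalized Cy5 of 6.50 and 6.31 in log2). Its log2 fold change was 2.43 ± 0.44 (SE, limma adjusted p = 0.0388); it was 1.78 without miR-23b/27b/24 replicate 1 (adjusted p = 0.0591) and 3.08 without replicate 2. The call was also lost without vector replicate 2 (adjusted p = 0.0517), in Cy5 alone (0.0513), with median centring (0.0583) and with every local background as measured (0.0963). The size of the change moved with the treatment of background, from 2.08 with local backgrounds as measured to 4.10 in the scanner's own log ratio, where Col9a1 was 4.25. Col16a1, a FACIT found near microfibrils and basement membranes, had -0.62 and -0.21 in the miR-23b/27b/24 cells, against -1.48 and -1.39 in the vector cells. It rose by 1.02 ± 0.18 in log2 (SE, limma adjusted p = 0.0373), with an adjusted p of 0.108 without miR-23b/27b/24 replicate 1 and 0.166 without replicate 2. The limma call of Col16a1 was also lost with all 4 arrays in use. Its adjusted p was 0.0509 in the scanner's log ratio and by the authors' values, and 0.0517 with processed signals. It was 0.0594 with median centring and 0.0735 with every local background as measured. Col22a1, a collagen of tissue junctions, had 0.23 and 0.48 in the miR-23b/27b/24 cells, against -0.65 and -0.42 in the vector cells. Its rise was 0.89 ± 0.16 (SE, limma adjusted p = 0.0396), but its second probe gave 0.08 with groups that overlapped (probe-level adjusted p = 0.740). The probes were nearly tied in mean intensity, at 7.4293 and 7.4287 in log2, so the call rests on the choice between them. For Col22a1 the adjusted p was 0.17 without miR-23b/27b/24 replicate 1 and 0.206 without replicate 2. With the mean of its probes Col22a1 was 0.48 and not called (adjusted p = 0.0766). In all, 4 of the 7 FACITs tested rose, where 4.78% of all genes did, and the count includes Col9a1 and Col14a1, which the filter kept only through the miR-23b/27b/24 arrays. Col20a1 had -1.47 and -1.26 in the miR-23b/27b/24 cells, against -1.25 and -0.43 in the vector cells, and did not pass the test (adjusted p = 0.328).

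Type VI collagen is a trimer of the products of Col6a1, Col6a2 and Col6a3 that assembles into beaded microfilaments around cells. Col6a3 rose most, with a log2 ratio of -2.0 and -2.35 in the miR-23b/27b/24 cells, against -3.72 and -3.67 in the vector cells. Its log2 fold change was 1.52 ± 0.16 (SE from 2 arrays in each group; adjusted p = 0.0126 by limma). Col6a1 had -1.80 and -1.28 in the miR-23b/27b/24 cells, against -2.67 and -2.58 in the vector cells, a rise of 1.09 ± 0.21 (SE, limma adjusted p = 0.0433). Both genes stayed below the reference pool in both groups. Col6a2 gave unlike values from its 2 probes. The brighter had -1.70 and -1.83 in the miR-23b/27b/24 cells, against -2.10 and -1.88 in the vector cells, a log2 fold change of 0.23 (limma adjusted p = 0.372). The other had -1.33 and -1.37 in the miR-23b/27b/24 cells, against -2.24 and -2.31 in the vector cells, a difference of 0.92 (probe-level adjusted p = 0.0184). These probes lie at chr10:76251837-76251896 and chr10:76257473-76257532, on the minus strand in mm7. Without miR-23b/27b/24 replicate 1 the adjusted p was 0.0857 for Col6a3 and 0.0874 for Col6a1, and without replicate 2 it was 0.0585 and 0.162. With every local background as measured it was 0.154 and 0.122. Col6a4, read by a probe that the files name otherwise and that is therefore no member, differed by 0.19 (adjusted p = 0.416).

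**Figure D2:**
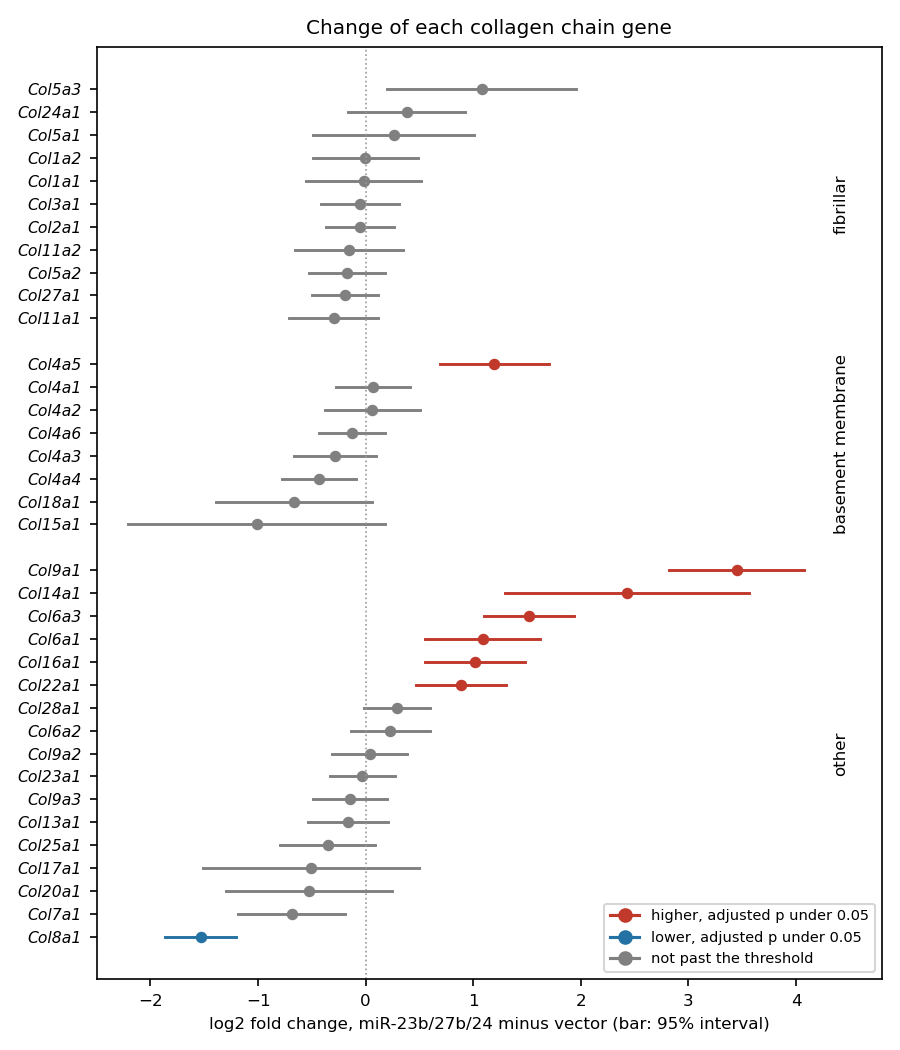
Log2 fold change of each of the 36 collagen chain genes, miR-23b/27b/24 minus vector, with its 95% interval from limma, grouped by class; colour marks an adjusted p under 0.05. The 11 fibrillar genes are grey throughout, 1 of 8 basement membrane genes and 7 of 17 other genes are coloured. Of all genes tested, 9.42% were called.

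Of the 8 basement membrane genes, 1 was called (12.5%, where 9.42% of all genes were), and it was higher. Type IV collagen has 6 chains: Col4a1 and Col4a2 form the network of nearly all basement membranes, and the products of Col4a3 to Col4a6 form rarer networks, best known from the kidney. Col4a5 gave log2 ratios of 1.46 and 1.94 in the miR-23b/27b/24 cells, against 0.55 and 0.46 in the vector cells, so it was above the reference pool in both groups. It rose by 1.20 ± 0.19 (SE from 2 arrays in each group; adjusted p = 0.0323 by limma). The adjusted p was 0.0801 without miR-23b/27b/24 replicate 1 and 0.135 without replicate 2. Col4a1 had -0.09 and 0.06 in the miR-23b/27b/24 cells, against -0.02 and -0.14 in the vector cells, and Col4a2 had 0.04 and 0.31 in the miR-23b/27b/24 cells, against -0.03 and 0.26 in the vector cells. Both pairs overlapped, and the 95% interval of the log2 fold change was -0.28 to 0.41 for Col4a1 and -0.38 to 0.51 for Col4a2. Col4a4 had -0.02 and 0.17 in the miR-23b/27b/24 cells, against 0.47 and 0.54 in the vector cells, which did not overlap but did not pass the test (limma adjusted p = 0.116). Col4a3, its partner chain, had -0.07 and -0.12 in the miR-23b/27b/24 cells, against 0.05 and 0.33 in the vector cells. It was not well above background on either miR-23b/27b/24 array and has only a bound, at least 1.11-fold lower by normalized Cy5, a difference that did not pass the test (limma adjusted p = 0.292). The Col4a3 bound was 1.02-fold without vector replicate 2 and 1.21-fold without vector replicate 1.

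Col4a6 lies next to Col4a5 on the X chromosome and is read in the opposite direction, with annotated starts 1343 bases apart. Its 3 probes did not give 1 answer. The brightest had 0.09 and 0.05 in the miR-23b/27b/24 cells, against 0.23 and 0.17 in the vector cells, a log2 fold change of -0.13 (limma adjusted p = 0.560). A second probe had -0.60 and -0.21 in the miR-23b/27b/24 cells, against -2.18 and -2.33 in the vector cells, a difference of 1.84 (probe-level adjusted p = 0.00915). The third was not well above background on either vector array and has only a bound, at least 1.62-fold higher by normalized Cy5 (probe-level adjusted p = 0.0507). In mm7 the brightest probe lies at chrX:135831206-135831265, the second at chrX:135829764-135829823 and the third at chrX:135830590-135830649, all on the minus strand. The direction for Col4a6 therefore changed with the probe: the mean of its probes gave 0.77 (adjusted p = 0.0292). The promoter windows of this pair are shown because the genes share the stretch between their starts. The Col4a5 window is at chrX:141475169-141475468 on the plus strand and the Col4a6 window at chrX:141474027-141474326 on the minus strand (RefSeq, GRCm38.p6). Capitals mark CCAAT and GGGCGG, which reads CCGCCC where it lies on the opposite strand.
Col4a5: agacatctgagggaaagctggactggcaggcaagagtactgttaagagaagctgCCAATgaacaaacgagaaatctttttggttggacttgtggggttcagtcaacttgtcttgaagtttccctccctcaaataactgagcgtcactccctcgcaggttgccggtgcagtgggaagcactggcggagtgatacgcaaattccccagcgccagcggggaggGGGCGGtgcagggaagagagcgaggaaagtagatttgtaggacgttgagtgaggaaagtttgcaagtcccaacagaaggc
Col4a6: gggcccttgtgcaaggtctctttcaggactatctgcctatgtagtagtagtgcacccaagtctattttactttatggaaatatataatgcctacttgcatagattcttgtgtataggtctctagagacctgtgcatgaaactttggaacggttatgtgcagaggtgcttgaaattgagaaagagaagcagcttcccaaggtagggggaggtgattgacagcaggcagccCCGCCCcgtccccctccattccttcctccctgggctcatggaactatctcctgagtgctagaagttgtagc
GGGCGG was found in both windows and CCAAT in that of Col4a5 alone. Col4a1 and Col4a2 are a second pair of this kind, with starts 21 bases apart on opposite strands, and their log2 fold changes were 0.07 and 0.06. Windows were at hand for 32 of the 40 collagen genes, 35 in all, and 20 of them held the GC box, 12 CCAAT, 5 the TATA box and 5 a form of the SOX core.

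The remaining basement membrane genes, Col15a1 and Col18a1, encode the collagens whose ends release restin and endostatin. Col18a1 had a log2 ratio of 0.30 and 1.03 in the miR-23b/27b/24 cells, against 1.47 and 1.18 in the vector cells, a log2 fold change of -0.66 ± 0.28 (SE, limma adjusted p = 0.210). Its second probe gave -0.64. Col15a1 had -0.11 and -0.13 in the miR-23b/27b/24 cells, against 0.20 and 1.58 in the vector cells, with the vector arrays 1.38 apart. It was not well above background on either miR-23b/27b/24 array, so it has only a bound there: it was at least 1.72-fold lower by normalized Cy5, a difference that did not pass the test (limma adjusted p = 0.238). The bound rested on vector replicate 2: it was 1.07-fold without that array (adjusted p = 0.194) and 2.78-fold without vector replicate 1 (adjusted p = 0.0036).

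Col8a1 was the collagen gene that fell. Type VIII collagen is a short-chain collagen that forms hexagonal networks, known from vessel walls and the cornea. Its log2 ratio was 0.14 and 0.01 on the miR-23b/27b/24 arrays, against 1.65 and 1.56 on the vector arrays. Replicates lay within 0.13 of each other, and the log2 fold change was -1.53 ± 0.13 (SE from 2 arrays in each group; adjusted p = 0.00723 by limma). Its second probe gave -1.58 (probe-level adjusted p = 0.00587), with -0.09 and -0.19 in the miR-23b/27b/24 cells, against 1.43 and 1.44 in the vector cells. The adjusted p was 0.0675 without miR-23b/27b/24 replicate 1 and 0.0721 without replicate 2. Col7a1, the collagen of the anchoring fibrils that tie the basement membrane to the tissue below, had 0.70 and 0.33 in the miR-23b/27b/24 cells, against 1.05 and 1.36 in the vector cells. Its log2 fold change of -0.69 ± 0.19 did not pass the test (SE, limma adjusted p = 0.0956). The transmembrane collagens Col13a1, Col23a1 and Col25a1 had log2 fold changes of -0.16, -0.03 and -0.35. Of the 4 transmembrane collagens tested, none was called by limma, where 9.42% of all genes were. Among them Col17a1, a collagen of the hemidesmosome, had 0.30 and 0.46 in the miR-23b/27b/24 cells, against 1.45 and 0.31 in the vector cells, where the vector arrays stood apart (limma adjusted p = 0.467); without vector replicate 2 it was called lower, at -1.07, and without vector replicate 1 its sign turned, to 0.06 (adjusted p = 0.816), as it did with every local background as measured (0.14). Col28a1, outside these classes, had 0.22 and 0.17 in the miR-23b/27b/24 cells, against -0.08 and -0.11 in the vector cells, a log2 fold change of 0.29 that did not pass the test (limma adjusted p = 0.199). Its spot was dim, with normalized Cy5 of 6.50 and 6.53 in log2 in the miR-23b/27b/24 cells, against 6.30 and 6.29 in the vector cells. It was well above background on 1 of 2 vector arrays, and under the alternatives its log2 fold change ran from 0.22 to 1.03.

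None of the 11 fibrillar genes was called by limma, where 9.42% of all genes were. With so few genes, a count of 0 lies near that share. In the same fit 1 of them (Col5a3) had an unadjusted p under 0.05, where 27.7% of all genes did. The chains of the major fibrils were far below the reference pool in both groups. Col1a1 had a log2 ratio of -4.41 and -4.52 in the miR-23b/27b/24 cells, against -4.71 and -4.19 in the vector cells. Col1a2, its partner in type I collagen, had -3.48 and -3.65 in the miR-23b/27b/24 cells, against -3.78 and -3.34 in the vector cells. Col3a1 had -4.42 and -4.49 in the miR-23b/27b/24 cells, against -4.52 and -4.29 in the vector cells, and Col2a1, the cartilage fibril chain, -4.23 and -4.22 in the miR-23b/27b/24 cells, against -4.23 and -4.11 in the vector cells. In each case the groups overlapped. The mean log2 ratio of Col1a1 over the 4 arrays was in the lowest 0.0634% of all genes tested. The 95% interval of the log2 fold change was -0.55 to 0.52 for Col1a1, -0.49 to 0.49 for Col1a2 and -0.42 to 0.31 for Col3a1. Changes within those intervals cannot be told from 0 with 2 arrays per group. Larger changes could also go uncalled, as for Col5a3, whose interval of 0.20 to 1.96 left out 0 (limma adjusted p = 0.121). Spots of the Col1a1 and Col2a1 probes are repeated on the array, 8 to 10 usable ones each, and their SD within an array was 0.03 to 0.10 in log2.

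Type V collagen sets the width of type I fibrils. Col5a3 had -0.98 and -1.97 in the miR-23b/27b/24 cells, against -2.55 and -2.55 in the vector cells. The groups did not overlap, but the miR-23b/27b/24 arrays differed by 0.99, and the log2 fold change of 1.08 ± 0.34 did not pass the test (SE, limma adjusted p = 0.121). Col5a1 and Col5a2 had log2 fold changes of 0.26 and -0.17 (adjusted p = 0.622 and 0.485). Col24a1 and Col27a1, minor fibrillar chains, had the highest ratios to the reference pool among the brightest probes of this class. Col24a1 was dim in both channels, and well above Cy5 background on 1 of 2 vector arrays. Col24a1 had 0.13 and 0.29 in the miR-23b/27b/24 cells, against 0.09 and -0.43 in the vector cells, and Col27a1 had -0.02 and -0.08 in the miR-23b/27b/24 cells, against 0.16 and 0.13 in the vector cells. Col11a1 and Col11a2, the chains of type XI collagen, differed by -0.30 and -0.15 (adjusted p = 0.310 and 0.675).

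The triple helix needs a glycine in each residue triplet, and 3 of the array's probes read straight through that repeat, with 1 glycine codon (GGN) in each run of 3 codons along their whole length. All 3 are collagen probes, of 78, and none of the other 41096 gene probes has the pattern. They are printed because they show the repeat that defines the family; capitals mark the glycine codons, of which Col5a3 has 7 and the others 6.
Col5a1: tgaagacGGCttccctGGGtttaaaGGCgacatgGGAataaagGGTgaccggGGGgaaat
Col5a3: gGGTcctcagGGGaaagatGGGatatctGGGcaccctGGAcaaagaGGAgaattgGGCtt
Col11a2: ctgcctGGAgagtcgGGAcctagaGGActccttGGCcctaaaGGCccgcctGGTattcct
In mm7 they lie at chr2:27994034-27996457 (plus strand), chr9:20655471-20656200 (minus strand) and chr17:32131401-32131567 (plus strand). None is the brightest probe of its gene. Their log2 fold changes were 0.16, 0.31 and 0.01, where the brightest probes gave 0.26 for Col5a1, 1.08 for Col5a3 and -0.15 for Col11a2.

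**Figure D3:**
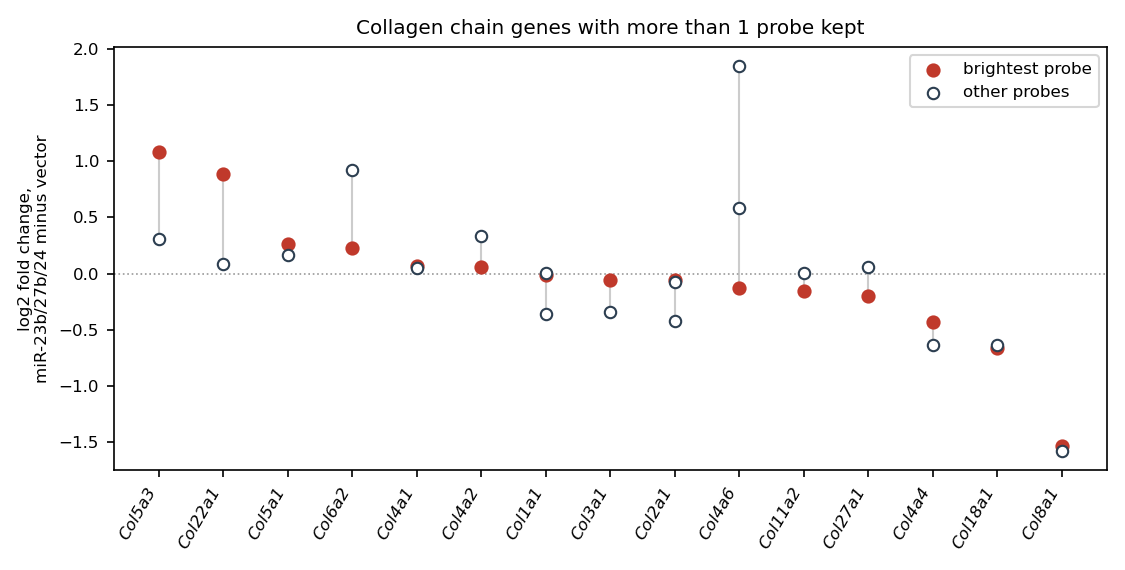
Log2 fold change, miR-23b/27b/24 minus vector, of every probe kept for the 15 collagen chain genes with more than 1; filled points are the brightest probe, which stands for the gene, and open points the others. Probes of Col8a1 lie together near -1.5, while those of Col4a6 run from -0.13 to 1.84.

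Measured ratios to the pool depended on the probe as well. The brightest Col1a1 probe read -4.41 and -4.52 in the miR-23b/27b/24 cells, against -4.71 and -4.19 in the vector cells, while another read -1.08 and -0.94 in the miR-23b/27b/24 cells, against -0.97 and -1.05 in the vector cells. That other probe was dim, with normalized Cy5 of 6.48 and 6.59 in log2 in the miR-23b/27b/24 cells, against 6.59 and 6.55 in the vector cells. A dim Cy5 spot limits how low its ratio can go, so that probe shows no higher level of Col1a1. The third Col1a1 probe was not dim, with normalized Cy5 of 9.68 and 9.69 in the miR-23b/27b/24 cells, against 10.11 and 10.02 in the vector cells. It read -2.70 and -2.65 in the miR-23b/27b/24 cells, against -2.25 and -2.38 in the vector cells, a difference of -0.36 (probe-level limma adjusted p = 0.147). Why it read above the brightest probe was not tested. For Col2a1 a probe that starts 20 bases from the brightest one, and so overlaps it, read 0.25 and 0.30 in the miR-23b/27b/24 cells, against 0.35 and 1.04 in the vector cells, where the brightest read about -4. The low levels given for the major fibrillar chains are those of their brightest probes.

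Genes that make, modify, bind, break down or regulate collagen, inhibitors of its breakdown included, were followed through 6 lists of 96 genes, of which 85 were tested. Of these, 11 rose and 6 fell with the cluster, 20% where 9.42% of all genes were called. In the list of synthesis inside the cell, 5 of 22 genes were higher (22.7%, where 4.78% of all genes were) and none lower. The median log2 fold change of that list was 0.23. P3h1, a hydroxylase of collagen prolines, had 0.59 and 0.88 in the miR-23b/27b/24 cells, against -0.62 and -0.59 in the vector cells, a rise of 1.34 ± 0.15 (SE, limma adjusted p = 0.0135). P4hb, the disulfide isomerase subunit of the main prolyl hydroxylase, had 0.17 and -0.09 in the miR-23b/27b/24 cells, against -1.54 and -1.03 in the vector cells, a rise of 1.32 ± 0.22 (SE, adjusted p = 0.0327). Plod1, a lysyl hydroxylase, and Colgalt1, which adds galactose to hydroxylysine, rose by 0.92 and 0.88. For these genes the groups did not overlap. Without miR-23b/27b/24 replicate 1 only 1 gene of the 6 lists was called, and without replicate 2 none was by limma, so these calls also rested on both arrays.

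Outside the cell, 1 of 12 processing genes was called (8.33%, below the 9.42% of all genes). This gene, Tgm2, a crosslinking transglutaminase, had 2.29 and 2.37 in the miR-23b/27b/24 cells, against 0.91 and 1.00 in the vector cells. Its rise was 1.38 ± 0.12 (SE, limma adjusted p = 0.00827). Among 17 partners of collagen 1 was called (5.88%, also below that share): Sparc, a glycoprotein that binds fibrillar and type IV collagen, rose by 1.29. Of 9 receptors, 3 were called (33.3%). Adgrg1, an adhesion receptor for type III collagen, rose by 2.13 and Mrc2, which takes up collagen for degradation, by 0.72. Itga2, a subunit of a collagen-binding integrin, fell by 1.51. Mrc2 changed sign, to -0.16, with every local background as measured. The degradation list held 7 tested proteases and 3 inhibitors of metalloproteinases, Timp1, Timp2 and Timp3. Of the proteases 2 were lower, where 4.64% of all genes were, and none higher. No inhibitor was called by limma. Mmp13, a collagenase, had -1.09 and -1.15 in the miR-23b/27b/24 cells, against 3.88 and 2.47 in the vector cells, a log2 fold change of -4.30 ± 0.47 (SE, limma adjusted p = 0.0134). It was -3.59 without vector replicate 1 and -5.00 without vector replicate 2. Mmp9, a gelatinase, fell by 2.30. Of 15 regulators, 5 were called (33.3%). Ccn2 (connective tissue growth factor) and Creb3l2, a factor of the secretory pathway, rose by 1.59 and 1.16. The tendon factor Scx, the receptor gene Tgfbr2 and the bone factor Runx2 fell by 1.97, 1.21 and 0.66. Runx2 was called in 8 of 18 alternatives, and with the replicate number as a block neither Runx2 nor Mrc2 passed the threshold.

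**Figure D4:**
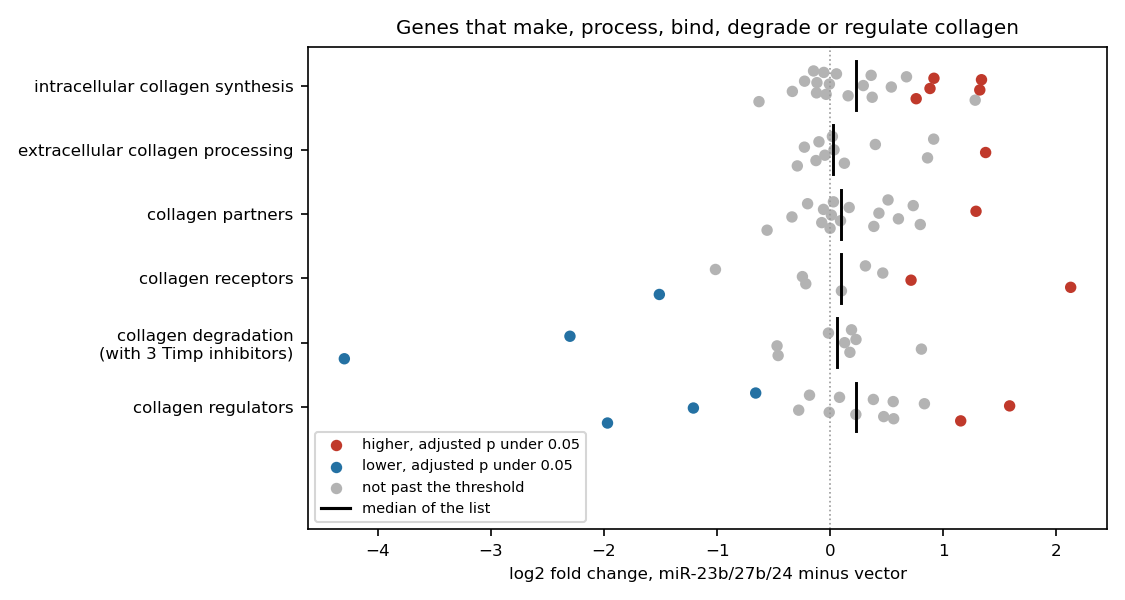
Log2 fold change, miR-23b/27b/24 minus vector, of the 85 tested genes in 6 lists (rows); each point is a gene, coloured where its adjusted p was under 0.05, and black bars are the medians. Synthesis has 5 higher and 0 lower genes, degradation 0 higher and 2 lower, with Mmp13 at -4.30. Of all genes tested, 4.78% were higher and 4.64% lower. The degradation row holds 7 proteases and 3 Timp inhibitors.

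Of the cell type markers, the epithelial list had the largest share called. By limma, 77.8% of epithelial, 11.1% of fibroblast, 0% of endothelial and 16.7% of leukocyte markers tested were called, beside 9.42% of all genes. Among 9 epithelial markers, all of them tested, 7 fell with the cluster, with a median log2 ratio of -0.02 and 0.07 in the miR-23b/27b/24 cells, against 2.37 and 2.91 in the vector cells. Their summed Cy5 signal was 16.8 and 17.2 in log2 in the miR-23b/27b/24 cells, against 18.4 and 18.1 in the vector cells. Krt8, a keratin of simple epithelia, was above the reference pool on all 4 arrays, at 1.15 and 1.09 in the miR-23b/27b/24 cells, against 1.28 and 0.37 in the vector cells. Of the 9 it alone had a positive log2 fold change, 0.30 (limma adjusted p = 0.61). The other 8 were negative, down to -4.49 for Krt7. In the miR-23b/27b/24 cells Krt7, Krt19, Cldn7 and Epcam were below the pool, with mean log2 ratios of -1.09, -3.43, -1.09 and -2.32. Of 10 fibroblast markers 9 were tested (not Fap), and Acta2 was higher; the median was -2.36 and -1.99 in the miR-23b/27b/24 cells, against -2.30 and -2.52 in the vector cells, and the summed signal 18.7 and 18.3 in the miR-23b/27b/24 cells, against 18.6 and 17.0 in the vector cells. Of 7 endothelial markers 4 were tested (not Cdh5, Emcn or Tie1) and none was called by limma. Of 7 leukocyte markers 6 were tested (not Itgam), and Cd68 was lower. The median log2 ratio of the leukocyte list was -1.93 and -2.04 in the miR-23b/27b/24 cells, against -1.09 and -1.05 in the vector cells, and its median log2 fold change was -0.13. The summed signal was 8.91 and 8.90 in the miR-23b/27b/24 cells, against 8.92 and 8.99 in the vector cells, for the endothelial list and 10.7 and 10.7 in the miR-23b/27b/24 cells, against 11.6 and 11.5 in the vector cells, for the leukocyte list. The part of these shifts in the collagen results was not tested.

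The log2 ratios of the 36 collagen genes had a Pearson correlation of 0.977 for the pair of miR-23b/27b/24 arrays, 0.972 for the vector pair, and 0.822 to 0.871 for pairs across groups; genes are not independent replicates, and every array shares the reference RNA. Over all genes these values were 0.952, 0.887 and 0.629 to 0.725. Between 69.9% and 74.8% of gene probes were well above background in Cy5 on an array, and no collagen probe was saturated.

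Under 18 alternatives of processing, the direction of the 8 called collagen genes did not change. The filter on all 4 arrays left out Col9a1 and Col14a1, so their counts come only from alternatives that kept their dim vector spots. Col9a1 was called in 17 of the 17 in which it was tested, Col8a1 in 16 of 18, Col4a5 and Col6a3 in 15, Col6a1 in 14, Col22a1 in 12, Col14a1 in 12 of 17 and Col16a1 in 11.

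**Figure D5:**
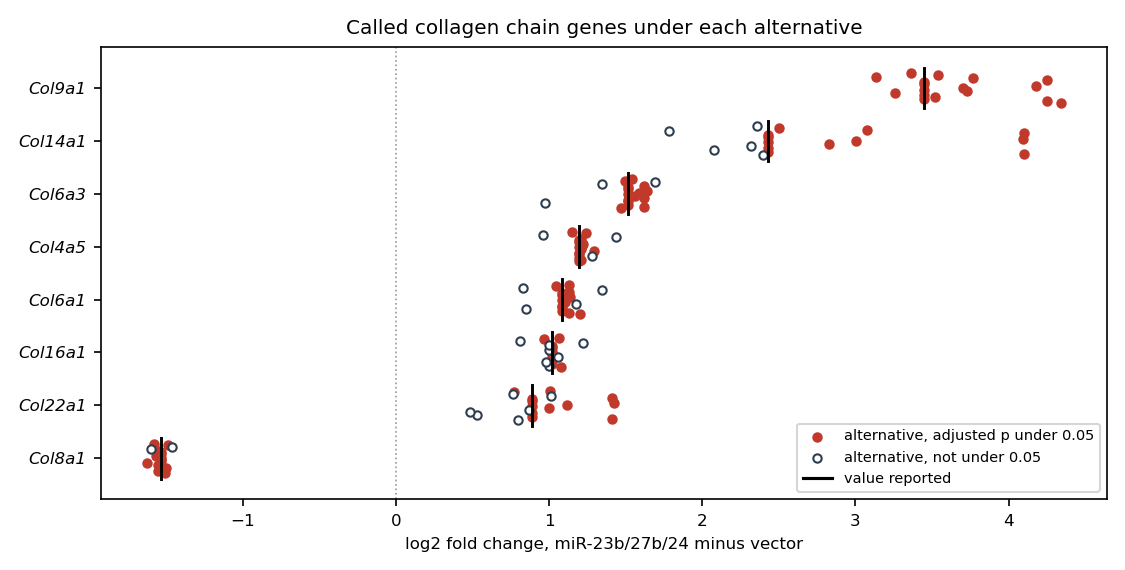
Log2 fold change, miR-23b/27b/24 minus vector, of the 8 called collagen chain genes under each of up to 18 alternatives; filled points passed an adjusted p under 0.05, open points did not, and black bars are the values reported. All points of a gene lie on the same side of 0, and Col14a1 is spread most, from 1.78 to 4.10.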

How the data were processed

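RNA of 4TO7 cells (Cy5) and Universal Mouse Reference RNA (Cy3) was hybridised to 4 Agilent arrays on 1 slide in 1 scan, with no dye swap, so no batch could enter the fit. Per the file headers, the spot intensity values (mean and background) and a log10 ratio of Cy5 over Cy3 come from Agilent Feature Extraction 9.5.3.1. The deposited table of the authors is in log2: it equals that ratio less the probe's median across all 4 arrays (87.3% to 87.8% of values within 0.001), with column medians of 0.0221 and -0.0149 for miR-23b/27b/24 and 0.0133 and -0.0172 for vector. Its program is not stated there.

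From the mean signals, local backgrounds marked as outliers were replaced by the array's median, followed by normexp (offset 50), loess within array with weight 0 for control spots, and averaging of a probe's spots, in R 4.3.3 with limma 3.58.1. A probe was kept (30035 of 41174) if a group had it well above Cy5 background on both arrays and all 4 arrays gave a value. Names came from the RefSeq table of GRCm38.p6: 22951 probes by accession, 6659 by symbol, 3109 by synonym, and 8455 kept the file's name. Groups were compared over 20498 genes with lmFit and eBayes (2 residual, 2.83 prior degrees of freedom) and Benjamini-Hochberg adjustment. Probe-level p-values come from the same fit on all kept probes. On simulated data of 20000 genes the test found 69% of genes changed by 2 in log2 and 95.8% of those changed by 4, and 6.24% of its calls were false. The simulation changed a far smaller share of genes than was called here and held no change below 2. These are therefore no rates for the data, and smaller changes were not simulated.

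The collagen genes, the lists and the background treatment were chosen with earlier results of these data known. Genes given by array were the called collagens, the largest uncalled ones to 12 in all, and the 2 of each class with the highest ratio; others named were chosen after their values were seen, and each list names up to 4 called genes per direction. Same-numbered arrays did not deviate together (correlation 0.0465 over genes), so the numbers were not taken as pairs. Alternatives covered background, scaling, channel, filter, probe choice, moderation, a replicate block and each array left out.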

Additional observations from a re-analysis of the deposited data

How the results depend on the processing

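Counts of calls were within 1.5 times of those reported, for collagens, all genes (1931) and the 6 lists (17), under processed signals with loess, no background correction, offset 16, Cy5 alone, no filter, the filter on all 4 arrays, the mean of probes, and both other forms of moderation. With every local background as measured, 2 collagens were called (1 higher), 635 of all genes and 5 of the lists, and Mrc2 was -0.164 in log2. Median centring in place of loess called 4 collagens (3 higher) and 1263 of all genes. The scanner log ratio and the authors' deposited table each called 2 collagens lower, Col4a3 and Col8a1, and did not call Col16a1 (limma adjusted p = 0.0509 in each). Col4a3 was not well above background on either miR-23b/27b/24 array. Its log2 difference was -1.61 by the authors' values, where the value reported was -0.28. Under the mean of the gene's probes, Col4a6 was 0.768 in log2 and called, Col6a2 was called higher (adjusted p = 0.047) and Col22a1 was not called. Leaving out 1 array gave 1 to 12 collagens called, 1 to 8 higher and 0 to 4 lower, 214 to 4584 of all genes and 0 to 27 of the lists; a lone remaining array then borrows its spread from the other group. With the replicate block, 8 collagens, 1762 of all genes and 18 of the lists were called, no collagen call changed, and of the genes named Runx2 and Mrc2 lost theirs. Apart from the values that follow from which probes or arrays were used, the cause was not tested. Dim signals limit Col9a1, Col14a1, Col24a1 and Col28a1 in the vector cells. They limit Col4a3, Col9a3, Col13a1 and Col15a1 in the miR-23b/27b/24 cells.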
